A study of Mus musculus with 12 samples.

Results

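Dorsal root ganglia (DRG) hold the cell bodies of the sensory neurons that serve the trunk and limbs, together with the satellite glia that wrap each cell body, Schwann cells that ensheath the axons, fibroblasts, blood vessels and resident immune cells. The comparison described here is between DRG that were dissociated and then depleted of non-neuronal cells by magnetic-activated cell sorting (MACS-sorted, 4 samples) and DRG that were only dissociated (unsorted, 4 samples). These 8 samples of the 12 in the series were taken by their labels, and all 24490 rows of the FPKM table were used. Of these rows, 12038 averaged 1 FPKM or more over the 8 samples and were tested. FPKM, fragments per kilobase of transcript scaled to the mapped fragments of each library, allows levels to be compared between genes of different length.

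All tissue came from adult male C57Bl/6 mice, with DRG pooled from all spinal levels. Each unsorted sample pooled 2 mice, and its cells were freed by digestion with dispase, collagenase and DNAse, trituration and a 40 µm filter. Each MACS-sorted sample pooled 8 mice and went through the same dissociation, after which a cocktail of biotinylated antibodies against non-neuronal cells and anti-biotin magnetic beads held the labelled cells on a column, and the unlabelled eluate was used. The remaining 4 samples of the series are intact ganglia of 1 mouse each and entered no comparison here. Sorted cells had therefore also undergone antibody incubation and passage through a column that the unsorted cells had not, and this handling cannot be told apart from the removal of cells.

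Depletion sorting leaves behind what the antibodies do not bind, so its outcome depends on which surface antigens each cell type carries. Sensory neurons fall into classes that differ in size, in myelination and in the stimuli they detect. Small unmyelinated nociceptors and itch neurons use TRP channels, P2X receptors and Mas-related receptors, whereas large neurons with myelinated axons are rich in neurofilament and serve touch and body position.

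The steps between low FPKM values corresponded to about 15600000 to 18300000 fragments in the unsorted samples and 13460000 to 17070000 in the MACS-sorted ones, under an assumed fragment of 150 bases. Between 8199 and 8327 genes lay above 5 FPKM in the unsorted samples, and between 7673 and 7997 in the MACS-sorted ones. Unsorted replicates 1 and 2 resembled each other more closely than any other pair within a group. Their median squared difference was 1.38 times that of counting noise. The remaining pairs of unsorted or of MACS-sorted samples stood at 2.56 to 14.7 times. Unsorted replicates 1 and 2 were kept as separate samples, but whether they came from separate pools of mice is not stated. If not, the unsorted group holds 3 independent samples. With both averaged to 1 sample, the calls of S100a8, S100a9, Sst, Tac1 and Trpv1 were lost (adjusted p = 0.052 to 0.106). Changes are given below as the log2-fold change, the difference between the group means of log2(FPKM + 0.1), MACS-sorted minus unsorted, with its standard error (SE). A gene was called enriched or depleted where 3 criteria were met: its adjusted p-value was under 0.05, the log2 ratio of its mean FPKM in the groups was beyond 0.5, and the larger of the group means exceeded 5 FPKM. By this rule 8.15% of the genes tested were enriched and 12.5% depleted. By the adjusted p-value alone 18.8% were higher and 27.7% lower. Groups without overlap were common: every sorted sample lay above every unsorted one for 18.4% of the genes tested, and below every one for 27.8%. The median log2-fold change of all genes tested was -0.04, and it was 0.02 under median-ratio scaling and 0.11 under quantile normalization. In bulk RNA, fewer cells of a type and less RNA per cell cannot be told apart, for this and for each result below.

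Marker lists of glia, fibroblasts and macrophages lost most of their signal, whereas those of endothelial cells and of most neuronal classes did not. The summed FPKM of each list, as a share of the unsorted mean, was 6.41% for fibroblasts, 7.37% for macrophages, 16.9% for satellite glia and 26.7% for myelinating Schwann cells. It was 89.7% for endothelial cells, 87.3% for pan-neuronal genes, 206% for non-peptidergic nociceptors and 377% for C low-threshold mechanoreceptors. The list of large-diameter neurons, although neuronal, kept 32.0%. A few abundant genes set some of these sums. Without Glul the satellite glia list kept 2.26%, and without Pmp22 and Mbp the list of myelinating Schwann cells kept 5.78%.

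**Figure D1:**
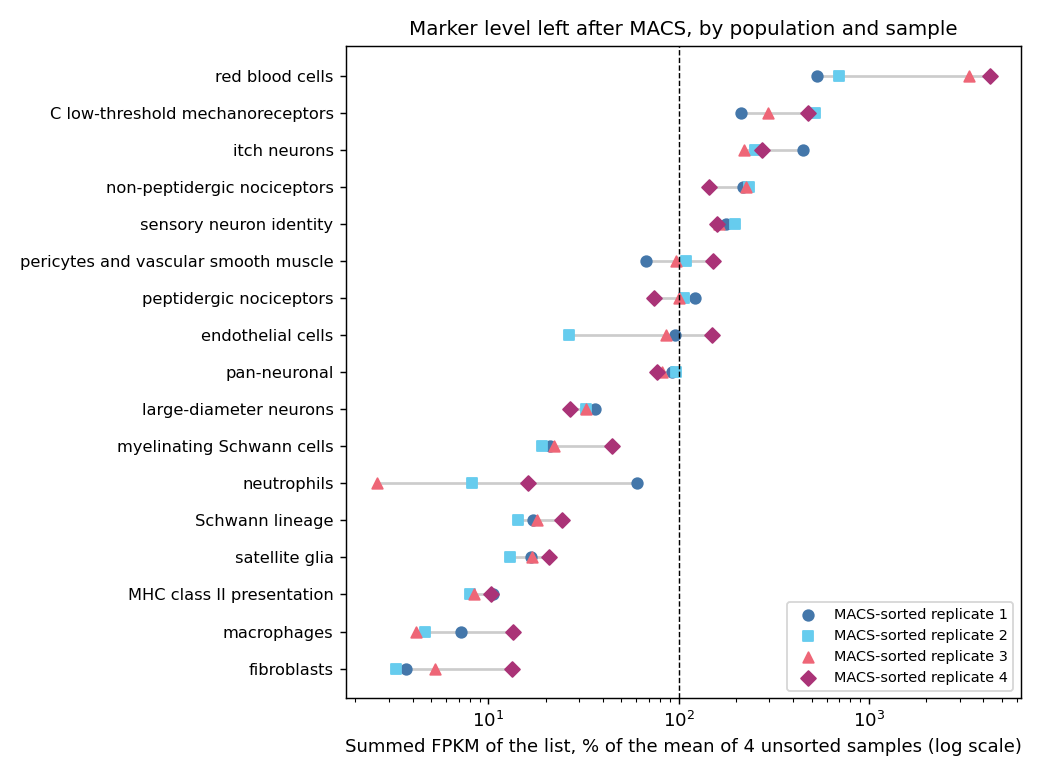
Summed FPKM of each marker list in each MACS-sorted sample, as a percentage of the mean of the 4 unsorted samples (log scale); marker shape and colour give the replicate, the grey line their range and the dashed line 100%. Fibroblast markers lie between 3.29% and 13.4% in the 4 sorted samples, endothelial markers between 26.5% and 149.8%, and red blood cell markers between 537% and 4324%. Lists with an unsorted mean under 20 FPKM are left out.

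Satellite glia, the cells that enclose each neuronal cell body and buffer its potassium and glutamate, lost nearly every marker tested. Of 13 listed genes, 11 were tested, 10 were depleted, against 12.5% of all genes tested, and none was enriched. The median log2-fold change over all 13 was -5.19. Fabp7 (chr10:57784923-57788450), a fatty acid binding protein of glia, measured 310, 295, 203 and 242 FPKM in unsorted replicates 1 to 4. Its sorted values, in the same order of replicates, were 1.79, 1.21, 2.35 and 10.8 FPKM. Every sorted sample was below every unsorted one, and the sorted mean was 1.54% of the unsorted mean (log2-fold change -6.50, SE 0.55, adjusted p = 1.38e-05). The steepest falls on the list were those of Mmd2 (log2-fold change -7.21, SE 0.48, adjusted p = 3.42e-06) and Ednrb, an endothelin receptor (log2-fold change -7.06, SE 0.36, adjusted p = 8.44e-07). The potassium channel Kcnj10 of satellite glia went from 17.3 to 23.4 FPKM in unsorted samples to at most 0.206 FPKM in sorted ones. Glul, the glutamine synthetase gene, kept a larger share of its level. It measured 160, 157, 138 and 144 FPKM in unsorted samples and 104, 82.3, 105 and 111 FPKM in sorted ones, again without overlap, but with a log2-fold change of only -0.58 (SE 0.10, adjusted p = 0.00103).

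Apoe, which encodes apolipoprotein E and was the most abundant of the 15 depleted genes with the steepest falls among those detected in at least 1 sorted sample, showed the same pattern at a far higher level. Its unsorted values were 2137, 2149, 1917 and 1674 FPKM and its sorted values 8.07, 5.44, 17.5 and 65.1 FPKM (log2-fold change -7.02, SE 0.63, adjusted p = 1.99e-05). Sorted replicate 4 kept the most, and the groups were far apart. A further 7 depleted genes, listed at 0 in every sorted sample, were left out of this ranking. The other genes among the 15 were Mmd2, Ednrb, Abca8a, Prss35, Fxyd1, Kcnj10, Itgb8, Acsbg1, Fabp7, Ttyh1, Gpr37l1, Serpine2, Aspa and Sostdc1.

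Genes of Schwann cells fell almost as uniformly, with a few abundant myelin genes that changed far less. On the list of myelinating Schwann cells, 10 of 12 tested genes were depleted and none enriched (median log2-fold change -3.82). On the list of the Schwann lineage, which includes non-myelinating cells, 8 of 9 were depleted and none enriched (median -5.43). Prx, periaxin of the myelin sheath, measured 80.0, 79.1, 58.1 and 95.1 FPKM in unsorted samples and between 2.09 and 7.08 FPKM in sorted ones. The groups did not overlap (log2-fold change -4.68, SE 0.36, adjusted p = 7.95e-06). Sorted replicate 4 again kept the highest level.

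Pmp22, a membrane protein of compact myelin, was depleted with a log2-fold change of -0.92 (SE 0.18, adjusted p = 0.00212), from 739, 732, 509 and 863 FPKM to 295, 426, 340 and 431 FPKM. Mbp, myelin basic protein, did not pass the test. Its unsorted values of 507, 498, 396 and 586 FPKM overlapped the sorted values of 255, 73.0, 198 and 578 FPKM (log2-fold change -1.19, 95% interval -2.32 to -0.07, adjusted p = 0.0769). Without sorted replicate 4, the sample with the 578 FPKM, Mbp was called depleted with a log2-fold change of -1.67. Mal, another abundant myelin gene, fell by 2.16 on the log2 scale (SE 0.21, adjusted p = 3.10e-05). The steepest fall on this list was that of the tight junction gene Cldn19, at -5.23.

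In the Schwann lineage, the transcription factor gene Sox10 fell by 5.54 (SE 0.59, adjusted p = 5.39e-05) and Sox2 by 5.81. S100b, a calcium binding protein of glia, kept more: it measured 325, 329, 341 and 357 FPKM before and 54.4, 27.2, 49.0 and 55.8 FPKM after sorting. This was a log2-fold change of -2.91 (SE 0.20, adjusted p = 4.47e-06) with no overlap. Scn7a, a sodium channel gene of this list, had overlapping groups and was not called (log2-fold change -0.41, SE 0.12, adjusted p = 0.0172).

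Fibroblast genes were lost to a similar depth. Of 12 listed genes, 10 were tested, 8 were depleted and none enriched, with a median log2-fold change of -4.21. Col1a2 (chr6:4505697-4541543), a chain of type I collagen, measured 87.3, 83.1, 50.8 and 67.9 FPKM in unsorted and 0.277, 0.227, 1.83 and 8.53 FPKM in sorted samples (log2-fold change -5.89, SE 0.90, adjusted p = 0.000517). Unsorted replicates 3 and 4 had the lower values in their group, and sorted replicates 3 and 4 the higher values in theirs. Dcn, the matrix proteoglycan decorin, fell by 3.42 (SE 0.28, adjusted p = 1.20e-05). The growth factor receptor gene Pdgfra was between 1.22 and 2.48 FPKM before and between 1.06 and 1.72 FPKM after sorting and did not pass the test (adjusted p = 0.169).

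The wider families of extracellular matrix followed. Of 44 collagen genes listed, 24 were tested, 13 were depleted and none was enriched, and 22 were lower with an adjusted p-value under 0.05, against 27.7% of all genes tested. The median over all 44 was -1.89. Col28a1, a collagen of peripheral glia, fell from 24.2 to 30.0 FPKM to between 0.107 and 1.38 FPKM, the steepest fall of the family (log2-fold change -6.03, SE 0.51, adjusted p = 1.49e-05). All 5 tested laminin genes of 11 listed were depleted (median of the 11, -1.32), from Lamb2 at -1.24 to Lama2 at -4.29. For connexins, the subunits of gap junctions, 5 of 20 listed genes were tested and all 5 were lower with an adjusted p-value under 0.05, although only Gja1 (log2-fold change -2.46) and the glial Gjc3 (-5.25) reached the level needed for a call. Integrins, which anchor cells to matrix, had 6 depleted and 0 enriched genes of 11 tested.

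**Figure D2:**
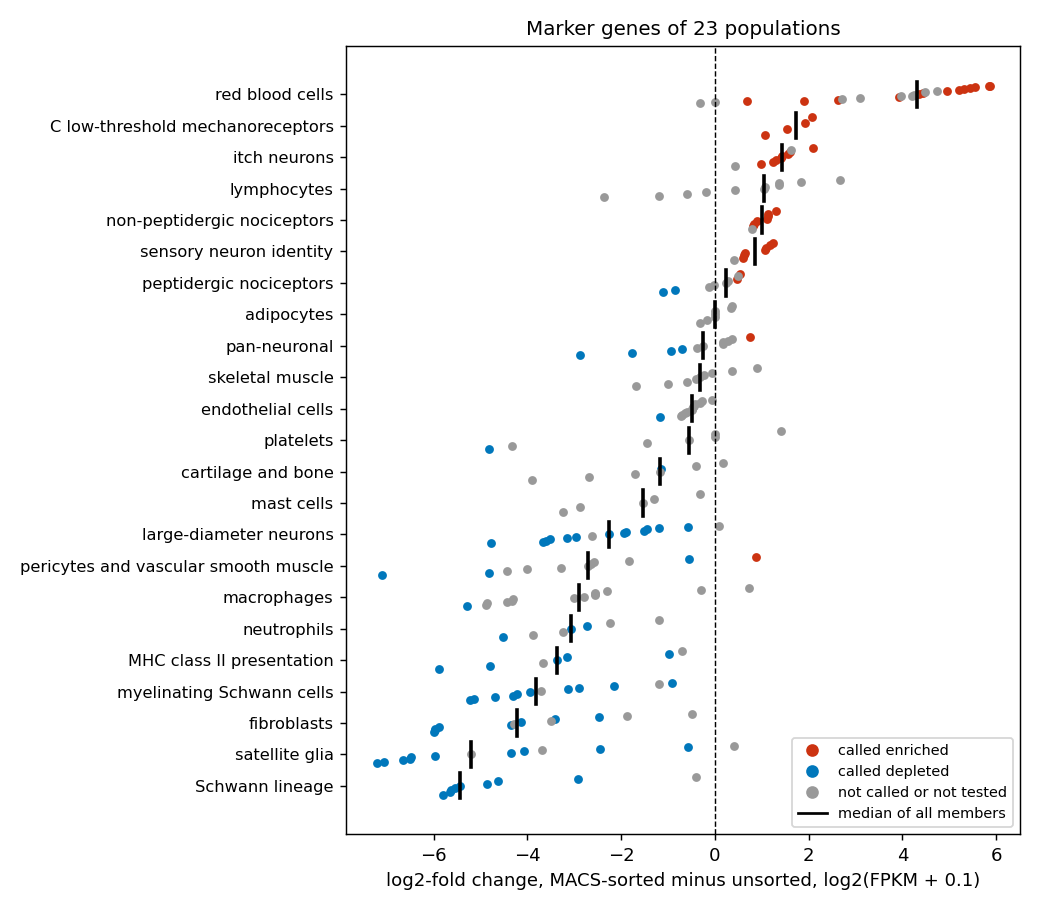
Log2-fold change of every marker gene, MACS-sorted minus unsorted, for 23 population lists ordered by their median (black bar). Red points are called enriched, blue points depleted and grey points not called or not tested. Most members of the Schwann lineage and satellite glia lists lie below -4, endothelial members between -1.18 and -0.05, and most red blood cell members above 2.

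Endothelial genes, in contrast to those of glia and fibroblasts, were retained on average but differed greatly between sorted samples. All 13 listed genes were tested, only Vwf (von Willebrand factor) was called, as depleted, and the median was -0.48. Cldn5 (chr16:18776847-18778262), a tight junction protein of vessels of the nervous system, measured 18.9, 18.7, 14.6 and 17.7 FPKM in unsorted and 24.5, 4.55, 20.6 and 34.1 FPKM in sorted samples. Sorted replicate 2 lay below every unsorted sample and the other 3 sorted samples above every one, so that the groups overlapped (log2-fold change -0.05, SE 0.51, 95% interval -1.21 to 1.10, adjusted p = 0.945). Without sorted replicate 2, Cldn5 was called enriched with a log2-fold change of 0.57. Ly6c1 was likewise lowest in sorted replicate 2 and highest in replicate 4, at 44.9 FPKM, against 18.3 to 23.8 FPKM in unsorted samples (adjusted p = 0.723). The summed level of the list was 96.3%, 26.5%, 85.9% and 149.8% of the unsorted mean in sorted replicates 1 to 4. Its median moved to -0.03 without sorted replicate 2 and to -0.74 without sorted replicate 4. Vwf fell by 1.18 (SE 0.28, adjusted p = 0.00627) and was lower in each sorted sample than in any unsorted one.

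Among genes of the cells that coat vessels, Rgs5 rose while the other listed genes fell. Of 11 listed genes of pericytes and vascular smooth muscle, 7 were tested, 3 were depleted and 1 was enriched (median -2.71). By the adjusted p-value alone 6 were lower, against 27.7% of all genes tested, and 1 was higher. Tagln, a contractile protein of smooth muscle, was between 11.3 and 16.3 FPKM in unsorted samples and listed at 0 in all 4 sorted samples. Acta2, smooth muscle actin, fell by 4.82 (SE 0.52, adjusted p = 6.13e-05), from 6.13 to 9.97 FPKM to at most 0.622 FPKM. Notch3 and Cspg4, below 5 FPKM in both groups, fell by 4.00 and 3.27 (adjusted p = 5.63e-05 and 0.000229). Pdgfrb, the receptor by which pericytes are recruited, fell by only 0.56 (SE 0.12, adjusted p = 0.00448). Rgs5 (chr1:169655501-169693526), a regulator of G-protein signalling that marks pericytes, instead rose from 49.3, 47.5, 38.3 and 40.0 FPKM to 50.8, 86.5, 76.6 and 119 FPKM. Its groups did not overlap, with sorted replicate 1 just above the highest unsorted sample (log2-fold change 0.87, SE 0.22, adjusted p = 0.00928). Rgs5 dominated the summed FPKM of this list, which stood at 107% of the unsorted mean with it and at 12.9% without it.

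Most immune cell genes that could be tested were lower in sorted samples. Among 14 macrophage genes, 6 were tested and all 6 were lower with an adjusted p-value under 0.05, but most were below 5 FPKM already in unsorted samples and only Lyz2, lysozyme, was called (log2-fold change -5.29, SE 0.69, adjusted p = 0.000185). C1qa, C1qb and C1qc, which encode the complement component C1q, changed by -4.87, -4.32 and -4.88. Genes of antigen presentation by MHC class II had 5 depleted of 6 tested, with Cd74, the invariant chain, at 31.4, 27.6, 17.3 and 16.0 FPKM before and 1.12, 0.102, 0.557 and 2.42 FPKM after sorting. That was a log2-fold change of -4.80 (SE 0.65, adjusted p = 0.000238). Of the 6, H2-DMa changed least, from 4.82 to 5.37 FPKM to between 1.75 and 3.24 FPKM.

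Of 5 neutrophil genes tested, 4 were lower with an adjusted p-value under 0.05 and 3 were depleted, while Retnlg did not pass (adjusted p = 0.0641). S100a8, a calcium binding protein of neutrophils, measured 43.9, 48.0, 19.4 and 17.2 FPKM in unsorted and 24.3, 3.77, 0.909 and 3.72 FPKM in sorted samples. Sorted replicate 1 exceeded unsorted replicates 3 and 4, so the groups overlapped, although the gene was called (log2-fold change -2.73, SE 0.81, adjusted p = 0.0200). Its call was lost without unsorted replicate 1 or 2 (adjusted p = 0.0533 and 0.0547). S100a9, its partner protein, also lost its call without either of these (0.0512 and 0.0521) or without sorted replicate 2 (0.0523), so that 1 neutrophil gene stayed depleted without unsorted replicate 1 or 2. Ngp, a neutrophil granule protein, was also highest among the sorted samples in replicate 1, at 1.87 FPKM, and was listed at 0 in replicates 3 and 4. Lymphocyte and mast cell genes were all under the filter, with summed levels of 0.612 to 4.41 and 1.99 to 4.28 FPKM in unsorted samples, and were not tested. The summed lymphocyte level in sorted samples was 2.26 to 7.83 FPKM, with a median log2-fold change of 1.05 over the 11 untested genes, and that of mast cells 0.0821 to 0.840 FPKM. Of 7 platelet genes, 2 were tested, and the integrin gene Itgb3 was depleted (log2-fold change -4.81).

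Among non-neuronal lists that could be tested, only that of red blood cells had a median above 0. Of 22 listed genes in the table, 20 were tested, 13 were enriched, against 8.15% of all genes tested, and none was depleted. The median log2-fold change over the 22 was 4.30. The summed FPKM was 381, 415, 185 and 226 in unsorted samples and 1619, 2095, 10085 and 13048 in sorted ones, and thus higher in every sorted sample but several times higher in replicates 3 and 4 than in 1 and 2. Without replicate 4, or with replicates 3 and 4 left out, 9 genes were called, and the median was 3.81 and 3.44. Globin genes have near-identical copies that share reads, so the levels of Hbb-bs, Hbb-bt and Hba-a2 are uncertain one against another. Among the 15 called genes with the largest rises, with 5 genes listed at 0 in every unsorted sample left out, Slc4a1, Hemgn, Rhag, Rhd, Cldn13, Hbb-bs, Alas2 and Hba-a2 are on this list, and Trnt1, Ctse, Apol11b, Trim10 and Ube2c are not.

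Slc4a1, the band 3 anion exchanger of the red cell membrane, measured 0.905, 0.727, 0.231 and 0.241 FPKM in unsorted and between 15.4 and 90.3 FPKM in sorted samples (log2-fold change 5.84, SE 0.55, adjusted p = 2.60e-05). Every sorted sample was far above every unsorted one. Alas2, the enzyme that starts haem synthesis in erythroid cells, went from 7.50, 7.82, 2.36 and 3.50 FPKM to 36.4, 45.6, 199 and 343 FPKM (log2-fold change 4.43, SE 0.71, adjusted p = 0.00072). Alas2 followed the globin genes, high in sorted replicates 3 and 4, whereas Slc4a1 was high in replicate 4 and not in replicate 3. Ank1, an ankyrin of the red cell skeleton that neurons also express, was at 53.9 to 67.1 FPKM in unsorted and 41.0 to 52.7 FPKM in sorted samples and was not called (log2-fold change -0.31).

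Some genes known from erythroid precursors or dividing cells were also higher in sorted samples, although no list of such genes was tested. The erythroid transcription factor genes Klf1 and Gata1 were near 0 in unsorted samples, at 0 to 0.127 and 0 to 0.031 FPKM, and at 1.63 to 10.4 and 0.694 to 5.08 FPKM in sorted ones. Both had an adjusted p-value under 0.05 (log2-fold change 4.47, SE 0.54, adjusted p = 0.000117 for Klf1, and 3.98 for Gata1) without reaching a mean of 5 FPKM. Ube2c, a ubiquitin-conjugating enzyme of mitosis, rose from 0.464, 0.653, 0.243 and 0.257 FPKM to 8.45, 5.94, 7.67 and 21.6 FPKM (log2-fold change 4.34, SE 0.41, adjusted p = 2.53e-05). Gata1 and the proliferation marker Mki67 (log2-fold change 4.05) were picked after their values were seen. In all 4 genes sorted replicate 4 was highest and replicate 2 lowest, as for Slc4a1.

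The promoters of Hbb-bs, Alas2 and Rhd are shown because they carry letters that erythroid factors are known to read, the core AGATAA of the GATA motif or CCACACCC of the CACCC motif. RefSeq (GRCm38.p6) gave the 250 bases before the start of 15 of the 22 genes. Capitals mark either motif on either strand (TTATCT is AGATAA on the opposite strand). Hbb-bs lies on the minus strand at chr7:103827929-103828178, Alas2 on the plus strand at chrX:150547167-150547416 and Rhd, a Rhesus blood group membrane protein, on the plus strand at chr4:134864286-134864535.
Hbb-bs: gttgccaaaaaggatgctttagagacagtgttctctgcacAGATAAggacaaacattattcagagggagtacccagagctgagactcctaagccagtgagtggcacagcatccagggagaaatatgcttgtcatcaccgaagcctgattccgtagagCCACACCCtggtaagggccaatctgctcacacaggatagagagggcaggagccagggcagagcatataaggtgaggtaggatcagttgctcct
Alas2: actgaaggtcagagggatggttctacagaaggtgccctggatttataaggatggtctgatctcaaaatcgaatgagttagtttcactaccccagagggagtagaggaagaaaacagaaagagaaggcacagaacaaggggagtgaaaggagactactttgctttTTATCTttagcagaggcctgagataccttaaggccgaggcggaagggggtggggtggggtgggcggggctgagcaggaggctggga
Rhd: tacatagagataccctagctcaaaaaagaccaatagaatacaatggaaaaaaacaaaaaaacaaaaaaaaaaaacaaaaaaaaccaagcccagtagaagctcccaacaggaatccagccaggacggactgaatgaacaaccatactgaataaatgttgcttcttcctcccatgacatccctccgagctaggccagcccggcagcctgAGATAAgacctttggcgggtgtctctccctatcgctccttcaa

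In the sequences as printed, AGATAA begins at -210 in Hbb-bs and -43 in Rhd, and its opposite-strand form TTATCT at -86 in Alas2. CCACACCC begins at -93 in Hbb-bs. Positions are counted from the annotated start. Of the 15 promoters, 5 (33.3%) held AGATAA and 1 (6.67%) held CCACACCC. Over all 27025 genes with a promoter the shares were 11.4% and 3.68%, and over the 9082 tested genes with one they were 6.86% and 4.07%. Among the enriched genes with a promoter, 7.97% of 728 held AGATAA, and among the depleted ones 6.61% of 1105. Both are near the 6.86% of the tested genes, from which the called genes come. A match describes these letters and is not evidence of binding.

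Genes shared by all neurons did not rise as a group. Of 11 pan-neuronal genes, 1 was enriched and 4 were depleted, with a median of -0.26. Uchl1, a neuronal ubiquitin hydrolase, measured 1565, 1574, 1622 and 1474 FPKM in unsorted and 1817, 2085, 1599 and 1593 FPKM in sorted samples, which overlapped (log2-fold change 0.18, 95% interval -0.07 to 0.43, adjusted p = 0.224). Stmn2, a microtubule regulator, also overlapped (log2-fold change 0.17, adjusted p = 0.146). Syt1, the calcium sensor of synaptic vesicles, was the enriched gene (log2-fold change 0.75, SE 0.10, adjusted p = 0.00016). Thy1 (chr9:44043384-44048579), a cell surface protein of neurons and other cells, fell from 397, 413, 436 and 407 FPKM to 73.1, 38.6, 65.6 and 52.9 FPKM. Its sorted mean was 13.9% of the unsorted mean (log2-fold change -2.88, SE 0.17, adjusted p = 1.91e-06), with the lowest value in sorted replicate 2. Snap25, a membrane fusion protein of nerve endings, fell by 0.94 (SE 0.07, adjusted p = 7.67e-06).

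Transcription factors and other genes that define sensory neurons rose. Of 8 in the table, 7 were enriched and none depleted (median 0.86). Runx1 (chr16:92601466-92826074), a transcription factor of nociceptors, had the largest rise, from 16.2, 16.1, 14.7 and 15.8 FPKM to 37.6, 36.3, 41.9 and 32.8 FPKM (log2-fold change 1.23, SE 0.08, adjusted p = 3.51e-06). Avil, advillin of peripheral neurons, rose by a log2-fold change of 0.61 (SE 0.10, adjusted p = 0.000626) and Pou4f1 by 0.63. Isl1 changed least, with 28.7 to 32.3 FPKM before and 35.5 to 45.0 FPKM after sorting (log2-fold change 0.42, adjusted p = 0.00233), and was not called.

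The neuronal classes diverged. Genes of non-peptidergic nociceptors, which sense mechanical and thermal pain in skin, were enriched in 7 of 8 cases and depleted in none (median 1.01). Gfra2, a co-receptor for neurturin, rose most (log2-fold change 1.31, SE 0.12, adjusted p = 2.28e-05). Mrgprd (chr7:145314835-145324059), a Mas-related receptor, measured 49.2, 51.7, 59.8 and 56.1 FPKM in unsorted and 119, 124, 118 and 59.9 FPKM in sorted samples. Sorted replicate 4 was level with the highest unsorted sample and the other 3 were far above it (log2-fold change 0.90, SE 0.21, adjusted p = 0.00635). Lpar3, a lysophosphatidic acid receptor, was likewise at 22.2 FPKM in sorted replicate 4 against 54.6 to 69.8 FPKM in the other sorted samples. It was not called over all samples (adjusted p = 0.0525) and was called enriched without that replicate (log2-fold change 1.15).

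Peptidergic nociceptor genes went both ways, with 2 enriched and 2 depleted of 9 and a median of 0.23. Calca, which encodes the neuropeptide CGRP, overlapped at 1066, 1056, 933 and 1003 FPKM against 1129, 992, 917 and 708 FPKM (log2-fold change -0.13, 95% interval -0.45 to 0.18, adjusted p = 0.461). Tac1, the substance P precursor, had a log2-fold change of 0.54 (SE 0.20, adjusted p = 0.0485), and the capsaicin receptor Trpv1 one of 0.48 (SE 0.17, adjusted p = 0.0476). Trpv1 met the criterion of size because its mean FPKM had a log2 ratio of 0.505. Both calls had overlapping groups, since sorted replicate 4 lay within or below the unsorted range, at 152 FPKM for Tac1 and 34.6 FPKM for Trpv1. Both calls were lost on leaving out any 1 of unsorted replicates 1 to 3 or of sorted replicates 1 to 3 (adjusted p = 0.0853 to 0.131). Without sorted replicate 4, 4 genes of the list were enriched. Kit, the receptor for stem cell factor, fell by 1.10 (SE 0.23, adjusted p = 0.00346).

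Itch neuron genes were enriched in 8 of 10 cases and depleted in none (median 1.42). Mrgpra3 (chr7:47588950-47601372), a receptor for the itch-inducing drug chloroquine, went from between 9.61 and 13.6 FPKM to 45.0, 52.6, 42.2 and 54.9 FPKM, the largest rise of the list (log2-fold change 2.08, SE 0.12, adjusted p = 1.84e-06). The sorted samples lay close together for this gene and for Mrgprx1 (31.9 to 40.0 FPKM). They did not for the peptide genes Sst, somatostatin, and Nppb, natriuretic peptide B. Sst lay between 10.7 and 15.1 FPKM in unsorted samples and measured 63.1, 19.9, 18.8 and 17.5 FPKM in sorted ones, and Nppb was also highest in sorted replicate 1, at 49.0 FPKM against 15.7 to 25.1 FPKM. The adjusted p-values were 0.0490 for Sst (log2-fold change 0.99, SE 0.36) and 0.00424 for Nppb (1.42, SE 0.31). Sst was no longer called without any 1 of the unsorted replicates or without sorted replicate 2 (adjusted p = 0.0515 to 0.117). Htr1f, a serotonin receptor, overlapped between groups (adjusted p = 0.400).

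C low-threshold mechanoreceptors, unmyelinated fibres that respond to gentle touch, gave the neuronal list with the highest median (1.74), with all 4 genes enriched. Th (chr7:142892776-142899966), tyrosine hydroxylase, rose from 42.6, 42.1, 35.1 and 26.1 FPKM to 89.7, 238, 119 and 205 FPKM (log2-fold change 2.08, SE 0.30, adjusted p = 0.00035). Sorted replicates 2 and 4 were higher than replicates 1 and 3, and the same order held for the secreted protein gene Fam19a4, with 35.2, 81.1, 52.3 and 83.9 FPKM. The vesicular glutamate transporter gene Slc17a8 rose by a log2-fold change of 1.93 (SE 0.20, adjusted p = 4.52e-05).

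Genes of large-diameter neurons fell. All 15 were tested, 13 were depleted and none enriched, with a median of -2.26. Nefh (chr11:4938756-4948064), the heavy neurofilament, measured 619, 610, 745 and 690 FPKM in unsorted and 102, 54.2, 81.9 and 68.2 FPKM in sorted samples, 11.5% of the unsorted mean (log2-fold change -3.15, SE 0.17, adjusted p = 1.17e-06). The medium and light neurofilaments fell less, Nefm by 1.91 (SE 0.12, adjusted p = 2.64e-06) and Nefl by 1.19 (SE 0.12, adjusted p = 3.25e-05). Spp1, osteopontin of proprioceptive neurons, fell furthest, to 9.20, 0.0509, 6.30 and 7.08 FPKM from 61.7 to 99.0 FPKM, with the lowest value in sorted replicate 2. The neurotrophin receptors Ntrk2 and Ntrk3, which mark mechanoreceptors and proprioceptors, are among the 13. Necab2 was the exception, with overlapping groups (log2-fold change 0.09, 95% interval -0.39 to 0.57, adjusted p = 0.759).

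**Figure D3:**
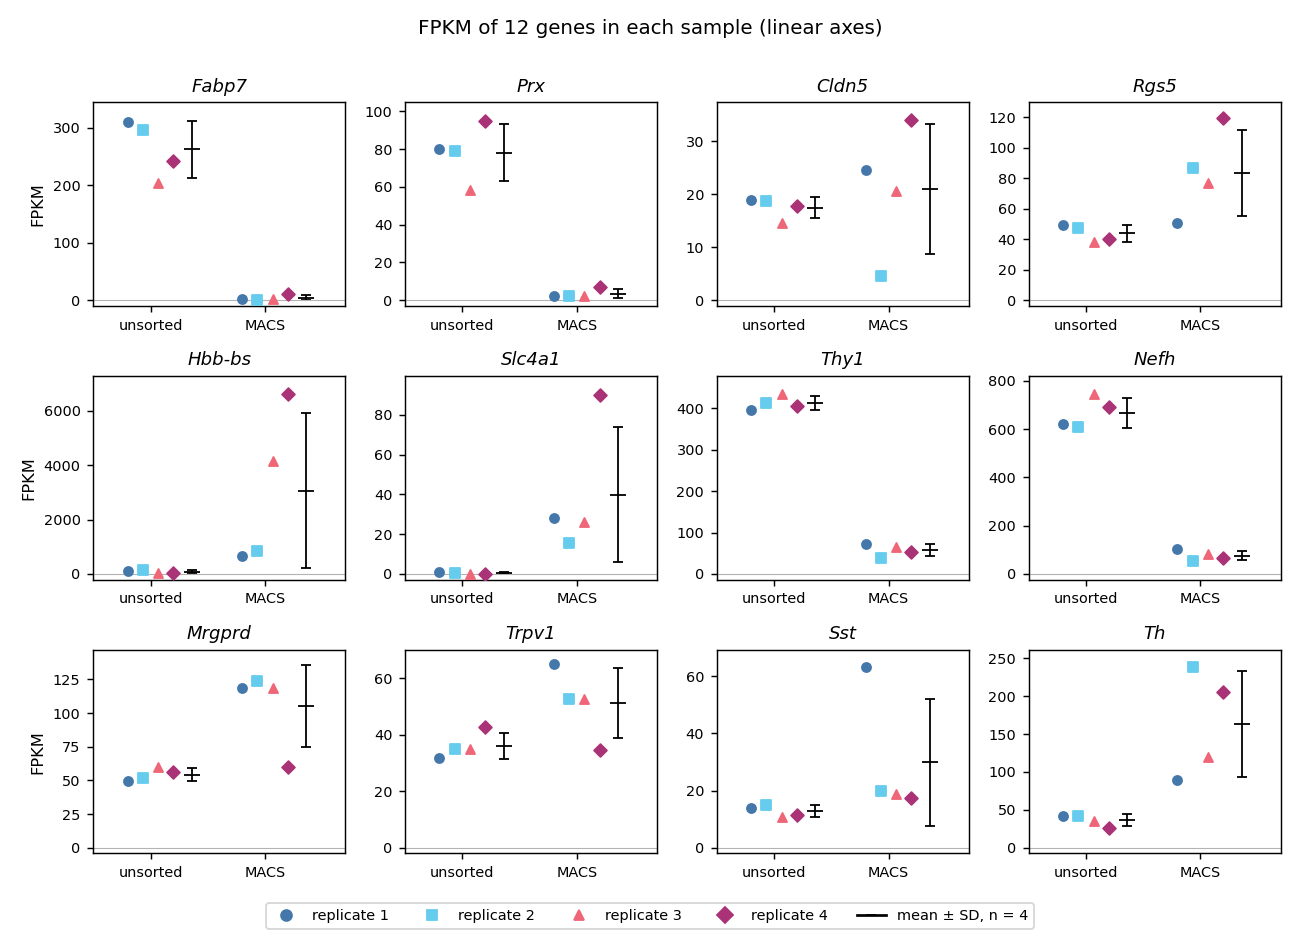
FPKM of 12 genes in each of the 4 unsorted and 4 MACS-sorted samples on linear axes; symbols give the replicate and the bar beside each group its mean ± SD (n = 4). Fabp7 and Prx are far below the unsorted level in sorted samples, Cldn5 splits with sorted replicate 2 lowest, and Mrgprd and Trpv1 in sorted replicate 4 lie within or near the unsorted range.

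Most ion channel families had members that rose and members that fell. Of 9 sodium channel alpha subunits, 2 were enriched and 2 depleted (median 0.09). Scn11a (chr9:119753765-119825456), which encodes the nociceptor channel Nav1.9, rose from 117, 116, 122 and 124 FPKM to 275, 249, 269 and 193 FPKM (log2-fold change 1.03, SE 0.11, adjusted p = 5.39e-05). Scn10a, the Nav1.8 gene, rose by 0.71 (SE 0.10, adjusted p = 0.000241). In contrast, Scn1a (chr2:66270782-66440837) fell from 21.2, 21.4, 25.4 and 23.6 FPKM to 3.82, 3.35, 4.65 and 5.83 FPKM (log2-fold change -2.38, SE 0.16, adjusted p = 3.36e-06). Among the beta subunits, Scn2b and Scn3b were enriched (1.33 and 0.73) and Scn4b was depleted (-2.24). Scn2b was uneven, at 18.8 FPKM in sorted replicate 3 against 43.9 to 60.3 FPKM in the others.

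Voltage-gated potassium channel alpha subunits, which set firing and repolarisation, were depleted more often than enriched, with 13 and 6 of 29 tested genes and 40 listed (median -0.53). Kcna1 (chr6:126636463-126645801), known from large neurons and juxtaparanodes of myelinated axons, fell from 76.5, 76.4, 83.0 and 86.2 FPKM to 9.63, 6.57, 10.3 and 11.1 FPKM (log2-fold change -3.11, SE 0.15, adjusted p = 5.14e-07). Kcnh6 and Kcnd3 rose, by 1.44 and 0.93 (SE 0.08 and 0.14, adjusted p = 1.64e-06 and 0.000495). Of 18 tested calcium channel subunits, 5 were enriched (27.8%, against 8.15% of all genes tested). Another 2 were depleted (11.1%, near the 12.5% of all genes tested). The median over 26 listed genes was -0.15, which turned to 0.12 under quantile normalization.

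TRP channels, the detectors of heat, cold and irritants, had 5 enriched and 0 depleted genes of 12 tested (median over 22 listed, 0.26). Trpa1 rose by 0.80 (SE 0.14, adjusted p = 0.000999) and Trpv2 by 0.57 (SE 0.10, adjusted p = 0.000964). The cold receptor Trpm8 measured 8.00, 7.46, 9.31 and 8.97 FPKM in unsorted and between 2.95 and 8.14 FPKM in sorted samples, with the lower levels in sorted replicates 3 and 4 (adjusted p = 0.0898). Of the ATP-gated P2X receptors, P2rx3 of nociceptors and P2rx2 were enriched (0.84 and 1.60) and P2rx6 was depleted (-3.14, SE 0.15, adjusted p = 5.11e-07). P2rx7, which glia and macrophages also express, was at 3.50 to 4.41 FPKM before and at most 1.50 FPKM after sorting. Of 11 ionotropic glutamate receptor subunits tested, the kainate receptor gene Grik1 was enriched (log2-fold change 1.19, SE 0.11, adjusted p = 1.88e-05) and 3 were depleted, among them Grin1 (-0.52). By the adjusted p-value alone 3 subunits were higher and 7 lower.

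Mas-related receptors, most of which are expressed in small sensory neurons, had 7 enriched and 0 depleted genes of 8 tested. Since 13 of the 21 listed genes were under the filter, the median over the family was 0.18. RGS proteins, which shorten G-protein signals, had 7 enriched and 1 depleted of 16 tested (median over 23 listed, 0.32). Rgs4 rose from 377, 384, 367 and 380 FPKM to 734, 930, 801 and 795 FPKM (log2-fold change 1.11, SE 0.09, adjusted p = 9.33e-06). Rgs8 rose most, by 1.46 (SE 0.12, adjusted p = 9.50e-06), and Rgs6 fell by 4.03 (SE 0.39, adjusted p = 3.16e-05). The groups did not overlap for any of these 3 genes.

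Genes of synaptic vesicles were depleted in 9 and enriched in 2 of 20 cases (median -0.39). Slc17a7, the vesicular glutamate transporter VGLUT1, fell from 71.9, 72.9, 98.2 and 79.9 FPKM to 8.32, 2.73, 8.07 and 7.22 FPKM (log2-fold change -3.71, SE 0.31, adjusted p = 1.46e-05), and Stx1a, a syntaxin, rose by 0.99 (SE 0.07, adjusted p = 7.29e-06). Among neurotrophic receptors, 8 were depleted and 2 enriched of 17 tested. The p75 receptor Ngfr fell by 1.30 (SE 0.10, adjusted p = 6.07e-06), and Erbb3, the neuregulin receptor of Schwann cells, by 5.66 (SE 0.67, adjusted p = 0.000105). Gfra2 and Ret, the signalling receptor for ligands of the GDNF family, were the 2 enriched genes. Of 11 neurotrophic ligands tested, 5 were depleted. Fgf1 fell from 174, 174, 190 and 187 FPKM to 78.4, 75.8, 76.1 and 77.3 FPKM (log2-fold change -1.24, SE 0.06, adjusted p = 5.48e-07). Cntf, a factor made by Schwann cells, was at 15.1 to 26.0 FPKM in unsorted samples and listed at 0 in all sorted ones. Bdnf, brain-derived neurotrophic factor, was the ligand that rose (log2-fold change 0.55, SE 0.11, adjusted p = 0.00289).

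**Figure D4:**
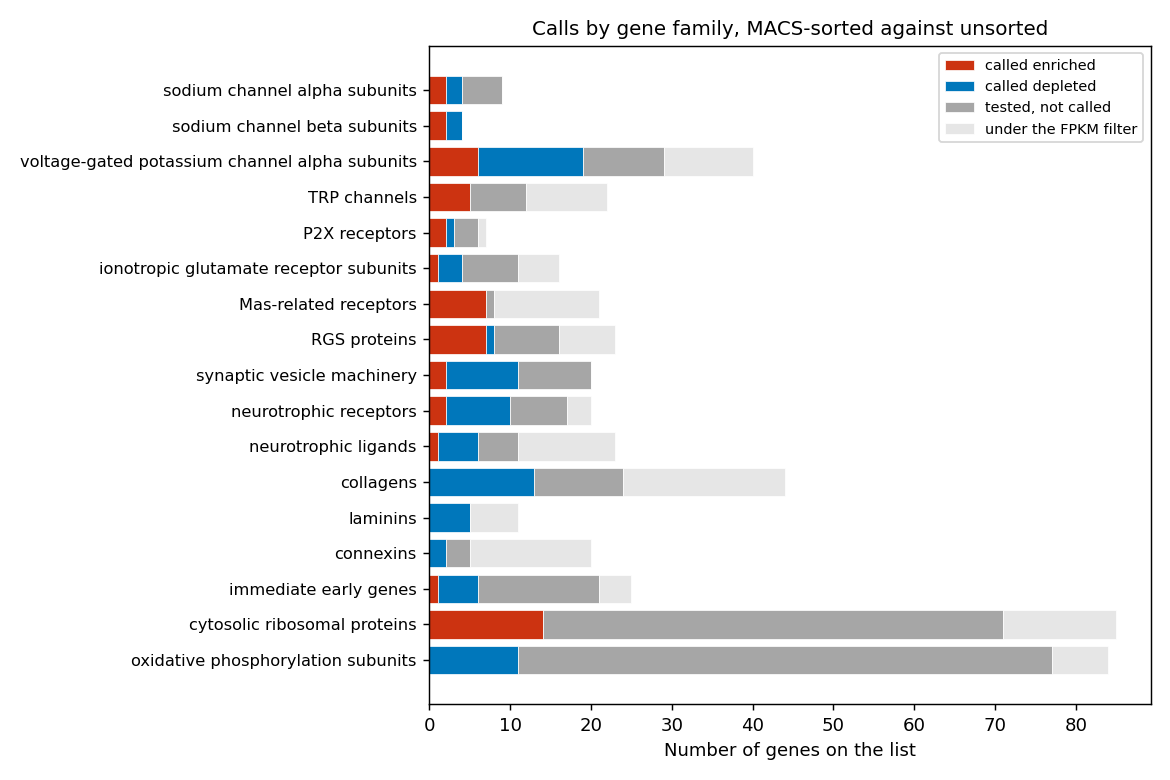
Number of genes called enriched (red), called depleted (blue), tested without a call (grey) and under the FPKM filter (light grey) in 17 gene families. Collagens have 13 depleted and 0 enriched genes, cytosolic ribosomal proteins 14 enriched and 0 depleted, and voltage-gated potassium channels calls in both directions.

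Housekeeping families moved by small amounts. Cytosolic ribosomal proteins had 14 enriched and 0 depleted of 71 tested genes, 35 of them higher with an adjusted p-value under 0.05 (18.8% of all genes tested were), and a median over 85 listed genes of 0.36. Rps26 rose from 16.6, 18.0, 14.6 and 16.8 FPKM to 39.4, 33.7, 29.6 and 46.1 FPKM (log2-fold change 1.15, SE 0.13, adjusted p = 8.59e-05). Ribosomal protein genes have many near-identical pseudogenes, so single members are uncertain. Subunits of oxidative phosphorylation had 0 enriched and 11 depleted of 77 tested, or 14.3% depleted, near the 12.5% of all genes tested. By the adjusted p-value alone 45 of the 77 were lower (27.7% of all genes tested were), and the family median was -0.32. Atp5b, a subunit of the ATP synthase, was the most abundant and fell by 0.54 (SE 0.09, adjusted p = 0.000991). The direction of both family medians held under median-ratio scaling, quantile normalization and removal of the red blood cell list.

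Immediate early genes, which are induced within minutes by stimulation or stress, had 5 depleted and 1 enriched of 21 tested (median -0.84), and differed between unsorted samples. The shares were 23.8% depleted and 4.76% enriched, against 12.5% and 8.15% of all genes tested. Fos measured 55.6, 57.7, 191 and 314 FPKM in unsorted and 39.2, 18.7, 47.8 and 52.5 FPKM in sorted samples. The values were far higher in unsorted replicates 3 and 4 than in 1 and 2, and every sorted sample was below them all (log2-fold change -1.68, SE 0.57, adjusted p = 0.0354). Jun was also higher in unsorted replicates 3 and 4, at 58.1, 60.8, 121 and 144 FPKM before and 36.6 to 56.1 FPKM after sorting (adjusted p = 0.0401). Leaving out unsorted replicate 3 or 4 or sorted replicate 1 or 2, each by itself, left 1 depleted gene in the family. The call of Fos was lost without any 1 of these or sorted replicate 3 (adjusted p = 0.0521 to 0.099). That of Jun was lost without unsorted replicate 3 or 4, without any 1 sorted replicate (adjusted p = 0.0548 to 0.112) and under median-ratio scaling (0.0553). Atf3, a marker of nerve injury, was at 4.22, 4.58, 17.4 and 24.4 FPKM in unsorted samples and between 14.9 and 16.8 FPKM in sorted ones, and did not pass the test (adjusted p = 0.282).

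The sorted samples differed among themselves by population. Replicate 4 kept the most fibroblast, macrophage, Schwann and endothelial signal, at 13.4%, 13.5%, 44.4% and 149.8% of the unsorted means, and the least non-peptidergic and peptidergic signal among sorted samples, at 145% and 74.2%. Replicate 2 kept the least satellite glial, myelinating Schwann and endothelial signal, at 13%, 19.2% and 26.5%. Replicate 1 had the most itch signal (451%, against 221% to 274% in the others) and neutrophil signal (60.4%, against 2.60% to 16.1%). The part of other cell types in any neuronal difference was not tested.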

How the data were processed

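PolyA-selected, strand-specific libraries were sequenced as 100-base reads, aligned with TopHat2 to mm10 and quantified with Cufflinks 2.1.1, per the submitters' processing notes and methods. The authors deposited FPKM per gene, which are not counts, and their own comparisons (CuffDiff) were not used. FPKM as deposited were transformed to log2(FPKM + 0.1), and MACS-sorted and unsorted samples (4 each) were compared with limma 3.58.1 (R 4.3.3, intensity trend, two-sided, Benjamini-Hochberg adjustment over all 12038 genes that averaged 1 FPKM or more). The procedure was tested on simulated data. Reads that fit up to 2 places were kept, so near-identical copies may share them. Nothing pairs samples with the same replicate number. The p-values measure the spread between samples, each a pool of 2 mice (unsorted) or 8 mice (MACS-sorted). If unsorted replicates 1 and 2 came from the same pool, part of that spread is not between pools. List medians cover all members in the table, tested or not. The members and lists were chosen with earlier results of these data known. Genes were named by rule: per list the 4 with the highest mean FPKM, the largest and smallest change, and 15 called genes in each direction across all genes, leaving out those listed at 0 in a whole group. Mal, Gata1, Mki67, Notch3, Cspg4, Ntrk2 and Ntrk3 fall outside it and were picked after their values were seen. Some genes that this rule names are not reported here.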

Additional observations from a re-analysis of the deposited data

Results flagged for a closer look

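In 38 of 348 groups of 4 values (10.9%), the highest or lowest sample lay farther from the others than Dixon's 95% limit for 4 samples. For independent values with a normal spread, this limit would be passed in about 1 in 20 groups. That rate cannot be used as a reference here, because FPKM values are skewed and genes measured in the same samples are not independent. Where only 1 of 4 samples had any signal, as for C1qc and Pf4 in MACS-sorted samples and Gata1 in unsorted ones, the limit was passed whatever the level. Whether 10.9% is more than chance was not tested. Of the 38, 20 genes and 1 marker sum were in MACS-sorted replicate 4.

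MACS-sorted replicate 4 was highest for the summed markers of myelinating Schwann cells, at 1232 FPKM against 533 to 611 in the other sorted samples. It was highest for the glial and Schwann genes Fabp7 (10.8 FPKM), Ednrb (0.801), Mmd2 (0.930), Prx (7.08), Sox10 (2.32), Sox2 (0.178), Gjc3 (1.36), Gjb1 (0.672) and P2rx7 (1.5). It was also highest for Apod (13.7), Col3a1 (4.44), Col1a1 (5.57) and Col28a1 (1.38) of the matrix, and for the complement gene C1qc (0.313). Among erythroid and mitotic genes it was highest for Slc4a1 (90.3), Gata1 (5.08) and Ube2c (21.6). It was lowest for the nociceptor genes Mrgprd (59.9 against 118 to 124), Plxnc1 (77.6 against 114 to 121) and Scn10a (237 against 297 to 306).

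MACS-sorted replicate 1 was highest for S100a8 (24.3 FPKM against 0.909 to 3.77), Ngp (1.87), Pf4 (0.185) and Sst (63.1 against 17.5 to 19.9).

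Unsorted replicate 3 was lowest for the Schwann lineage sum (620 against 674 to 678), Scn7a (84.2), Col4a1 (19.4) and Gjc3 (11.8), and highest for Ank1 (67.1), Tubb3 (1173), Avil (246), Scn10a (191) and the skeletal muscle sum (8.5 against 0.781 to 0.920). Unsorted replicate 4 was lowest for Prdm12 (48.9) and Plxnc1 (45.8) and highest for Cntf (26 against 15.1 to 17.0). Unsorted replicate 2 was the only unsorted sample with Gata1 above 0 (0.031). What sets these samples apart was not tested.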

How the results depend on the processing

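Of 981 enriched and 1505 depleted genes, 39.5% were enriched. The split was 46.4% under median-ratio scaling (1169 and 1352), 52.5% under quantile normalization (1405 and 1271) and 43.8% without red blood cell genes. A log2 ratio beyond 1 left 260 and 879, a mean above 1 FPKM gave 2352 depleted, and the adjusted p alone 2261 and 3331. Leaving out each sample gave 923 to 1019 enriched and 1486 to 1539 depleted, averaging unsorted replicates 1 and 2 gave 962 and 1490, and leaving out MACS-sorted replicates 3 and 4 gave 1136 and 1509. The last 2 settings were chosen after seeing the data.

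Samples with the same number did not deviate together (correlations -0.029, -0.028, 0.044 and 0.040), and only those numbered 4 correlated best with their own number. A replicate block gave 991 and 1516 genes.

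List medians moved mostly with the pseudocount. With 1 in place of 0.1 they were -3.00 for satellite glia, -3.03 for the Schwann lineage, -3.28 for fibroblasts, -0.83 for pericytes and smooth muscle, -1.09 for macrophages, -2.34 for MHC class II, -0.53 for mast cells, 2.21 for red blood cells, -0.05 for skeletal muscle, -0.29 for cartilage and bone and -1.64 for large-diameter neurons. With 0.01 they were -6.18 for satellite glia, -5.01 for fibroblasts, -5.05 for pericytes, -5.44 for macrophages, -1.01 for muscle and -2.31 for cartilage. Under quantile normalization the medians were -2.35 for pericytes, 0.02 for muscle (reversed) and -0.81 for cartilage. Without single samples, they ranged from -2.95 to -2.62 for pericytes and vascular smooth muscle, -0.53 to -0.05 for skeletal muscle and -1.43 to -1.09 for cartilage and bone. Without MACS-sorted replicates 3 and 4 the pericyte median was -2.95. The log2-fold change of Cldn5 ranged from -0.39 to 0.57 over single samples left out, and reversed to 0.57 (adjusted p = 0.022) without MACS-sorted replicate 2. The cause of these shifts was not tested.

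Values near 0 FPKM set the size of the steepest changes, since the pseudocount bounds them. Depth limits the precision of low FPKM values. All genes of the lymphocyte, mast cell, muscle and adipocyte lists fell under the filter of a mean of 1 FPKM and were not tested.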

Other observations

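Among the 15 called genes with the largest rises (those at 0 in every unsorted sample left out), Trnt1, a tRNA-processing enzyme, was listed at 0 in unsorted replicates 1, 2 and 4, at 16.4 FPKM in unsorted replicate 3 and at 16.5 to 20.6 FPKM in every MACS-sorted sample.

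Semaphorins, plexins and neuropilins, which guide axons, had 10 depleted and 2 enriched genes of 29 tested (median log2-fold change over 31 listed, -1.01). Chemokines had 0 called genes of 10 tested by limma, of which 2 were higher and 3 lower with an adjusted p-value under 0.05. These counts are near the shares of all genes tested, 18.8% higher and 27.7% lower. Cholesterol synthesis enzymes, another set of metabolic genes, had 2 depleted and 0 enriched of 19. That is 10.5% depleted, near the 12.5% of all genes tested. IGF-binding proteins had 3 depleted and 0 enriched of 6 tested.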
